A study of Homo sapiens with 4 samples.

Results

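The 8 genes described here encode enzymes that remove damaged or unwanted nucleotides from the pool of DNA precursors, together with the glycosylases that deal with oxidized guanine in DNA. They are NUDT1, NUDT5, NUDT18, OGG1, MUTYH, DUT, ITPA and DCTPP1. They were taken by Ensembl identifier from the 58736 features listed for each library, and all 8 were found. RNA was sequenced from HEK293A cells, a human epithelial line established from embryonic kidney, in a study of gene regulation by the flap endonuclease FEN1 directed with hairpin-forming DNA probes. The 2 libraries labelled NT1_hp2 (replicates 2 and 3) came from cells given the probe of that name, and the 2 negative control libraries (replicates 1 and 3) are the group they are set against. In both groups each well was transfected with FEN1 plasmid (1 µg), then after 48 h with DNA probe (500 pmol), and RNA was taken after 72 h. The labels name neither the gene that the NT1_hp2 probe was made to target nor the probe of the negative control, so the intended effect could not be checked. Nothing in the labels says that the replicates were separate cultures, so the spread between them may be technical. The genes were chosen with this comparison already known, so their values are given as a description. Where members pass a threshold in the fit across all genes, that is not read as a test of them.

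Free nucleotides are more exposed to oxidation and deamination than bases inside the double helix, and polymerases can insert the damaged forms into DNA. Nucleotide pool enzymes hydrolyse such triphosphates to monophosphates, which polymerases cannot use. NUDT1, also called MTH1, cleaves oxidized purine triphosphates such as the oxidized forms of dGTP and dATP. NUDT5 and NUDT18 belong to the same Nudix hydrolase family and act on oxidized guanine nucleotides at the diphosphate stage, and NUDT5 also cleaves ADP-ribose. DUT hydrolyses dUTP and so keeps uracil out of DNA, ITPA removes the deaminated purine nucleotides ITP and dITP, and DCTPP1 hydrolyses dCTP and modified dCTP forms. When oxidized guanine does reach DNA, OGG1 excises it opposite cytosine, and MUTYH removes the adenine that has been paired with it.

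NUDT1 (ENSG00000106268, chromosome 7, 2242222 to 2251146, GRCh38, plus strand) starts 24 bases from MRM2, a gene of the opposite strand that encodes a mitochondrial ribosomal RNA methyltransferase, so the region before each start holds the start of the other gene. NUDT5 and CDC123, a gene for a translation initiation assembly factor, start 179 bases apart on opposite strands. MUTYH and TOE1, a gene for a nuclear deadenylase, start 800 bases apart, also on opposite strands. Unlike NUDT1 and MRM2, the genes of these pairs overlap, with 180 exon bases shared by NUDT5 and CDC123 and 552 by MUTYH and TOE1. The regions around the starts of NUDT1, NUDT5 and MUTYH are printed because each of these members can be set beside a protein-coding neighbour that starts close by on the other strand. The start near that of DUT, at 845 bases, is that of the antisense gene AC023355.1. Each region runs from 250 bases before to 50 bases after the RefSeq start nearest to the GENCODE 29 start, on the gene's own strand. The windows lie at chr7:2241976-2242275 (plus), chr10:12195842-12196141 (minus) and chr1:45340391-45340690 (minus) in GRCh38.p14. For NUDT5 that RefSeq start lies 253 bases inside the GENCODE start from which the distance to CDC123 was taken, so its window lies within the annotated gene. Capitals mark matches of the ETS core motif CCGGAAG on either strand.
NUDT1: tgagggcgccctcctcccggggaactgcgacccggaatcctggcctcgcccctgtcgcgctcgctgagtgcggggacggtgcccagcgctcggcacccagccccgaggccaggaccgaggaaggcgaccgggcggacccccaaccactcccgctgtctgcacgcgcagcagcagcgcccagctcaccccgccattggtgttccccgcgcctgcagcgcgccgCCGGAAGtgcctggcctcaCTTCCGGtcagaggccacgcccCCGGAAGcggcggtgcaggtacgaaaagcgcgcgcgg
NUDT5: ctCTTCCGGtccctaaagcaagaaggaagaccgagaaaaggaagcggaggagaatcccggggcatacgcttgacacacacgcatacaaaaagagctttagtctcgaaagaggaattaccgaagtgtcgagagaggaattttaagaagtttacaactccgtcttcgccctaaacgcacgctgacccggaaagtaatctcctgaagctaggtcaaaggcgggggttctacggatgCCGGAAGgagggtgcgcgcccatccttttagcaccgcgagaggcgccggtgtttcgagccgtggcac
MUTYH: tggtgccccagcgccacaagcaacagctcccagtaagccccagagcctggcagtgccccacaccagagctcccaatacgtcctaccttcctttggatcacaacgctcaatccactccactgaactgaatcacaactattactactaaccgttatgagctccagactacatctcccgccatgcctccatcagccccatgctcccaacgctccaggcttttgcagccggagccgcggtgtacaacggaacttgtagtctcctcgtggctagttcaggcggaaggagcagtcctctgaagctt
The NUDT1 region held 3 matches of this motif, the NUDT5 region 2 and the MUTYH region 0. The regions chosen in the same way for OGG1, DUT, ITPA and DCTPP1, not printed, held 1, 0, 0 and 0. The RefSeq start for ITPA lies 4803 bases from its GENCODE start. For DCTPP1 it lies 275 bases inside the GENCODE start, so that window, like that of NUDT5, lies within the annotated gene. Of 35116 RefSeq promoter regions of the same length, 10.3% held at least 1. The NUDT1 region was 74.3% G or C with 38 CpG pairs, against medians of 58.7% and 14 over those regions. It also held 1 match of the SP1 motif GGGCGG (in 45.0% of all regions) and 1 of CCAAT (34.6%), and none of the E2F motif TTTCCCGC (1.63%), the antioxidant response element core TGACNNNGC (13.3%), TGATGNAA (3.62%), which is a core shared by CEBP and ATF factors, or TATAAA (11.5%). All motifs were searched on both strands with overlaps allowed, and were picked with the expression values known. They describe the letters of this window, not factor binding.

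NUDT1 was the member that differed most. It was measured at 4.19 and 4.27 FPKM in NT1_hp2 replicates 2 and 3, against 11.5 and 10.1 FPKM in negative control replicates 1 and 3. FPKM here is reads divided by exon length and by the library size that the deposited values imply, which is not the read total. The groups did not overlap, and the gap between them was several times the gap within either. Group means were 4.23 ± 0.0558 FPKM in NT1_hp2 and 10.8 ± 0.966 FPKM in the negative control (SD, n = 2 each), a ratio of 0.392, or 60.8% lower. On the log2(FPKM + 1) scale, which understates changes of genes at low levels, the difference was −1.17 (SE 0.086). The values corresponded to 124 and 127 reads in NT1_hp2 and to 346 and 266 reads in the negative control. After scaling for that implied library size the ratio of summed reads was 0.390, with a 95% exact binomial interval of 0.336 to 0.453 that covers counting error only. Of the 16362 genes tested, 80 (0.489%), NUDT1 included, had a difference as low or lower. In bulk RNA, less transcript per cell and fewer cells carrying it cannot be told apart.

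**Figure D1:**
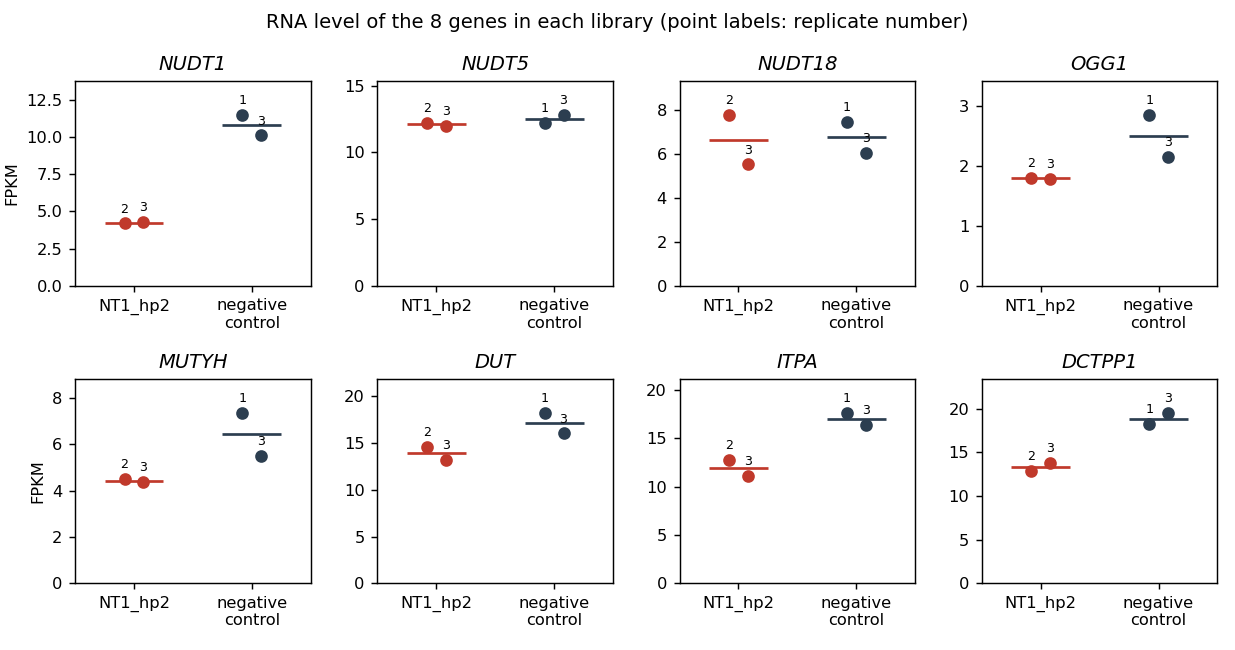
FPKM of each of the 8 genes (vertical axis from 0, own scale per panel) in the 2 NT1_hp2 libraries and the 2 negative control libraries. Points are libraries labelled with their replicate number and horizontal lines are group means. NUDT1 shows the widest separation, 4.23 against 10.8 FPKM on average, whereas the libraries of NUDT5 and NUDT18 overlap between groups.

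The other Nudix members did not separate the groups. NUDT5 (ENSG00000165609, chromosome 10, 12165325 to 12196144, minus strand) had 12.2 and 11.9 FPKM in NT1_hp2, against 12.2 and 12.8 FPKM in the negative control. It had the smallest standard error of the 8, with a log2 difference of −0.042 (SE 0.064), and a read ratio of 0.970 (95% exact binomial interval 0.906 to 1.04) from 1701 reads in NT1_hp2 and 1669 in the negative control. NUDT18 (ENSG00000275074, chromosome 8, 22106872 to 22109419, minus strand) had 7.78 and 5.54 FPKM in NT1_hp2, against 7.48 and 6.07 FPKM in the negative control. Its libraries differed more within each group than the group means did from each other (6.66 ± 1.59 FPKM in NT1_hp2 and 6.77 ± 0.991 FPKM in the negative control).

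The glycosylase genes of oxidized guanine were both lower in NT1_hp2, by less than NUDT1. OGG1 (ENSG00000114026, chromosome 3, 9749944 to 9788219, plus strand) had 1.81 and 1.79 FPKM in NT1_hp2, against 2.86 and 2.16 FPKM in the negative control. MUTYH (ENSG00000132781, chromosome 1, 45329163 to 45340470, minus strand) had 4.49 and 4.38 FPKM in NT1_hp2, against 7.36 and 5.50 FPKM in the negative control. In both genes the NT1_hp2 libraries agreed closely, within 0.976% and 2.56% of their mean, whereas negative control replicate 1 lay above replicate 3 by 27.7% and 28.9% of the mean. Negative control replicate 1 also lay above replicate 3 in NUDT1, NUDT18, DUT and ITPA, and below it in NUDT5 and DCTPP1. The log2 difference was −0.32 (SE 0.14) for OGG1 and −0.44 (SE 0.14) for MUTYH, and without negative control replicate 1 these were −0.17 and −0.26. OGG1 was the least abundant member in both groups.

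The hydrolases of uracil, inosine and cytosine nucleotides were lower in both NT1_hp2 libraries than in both controls. DUT (ENSG00000128951, chromosome 15, 48331011 to 48343373, plus strand) had 14.6 and 13.2 FPKM in NT1_hp2, against 18.2 and 16.01 FPKM in the negative control, a log2 difference of −0.28 (SE 0.092). ITPA (ENSG00000125877, chromosome 20, 3208868 to 3223870, plus strand) had 12.7 and 11.1 FPKM in NT1_hp2, against 17.6 and 16.4 FPKM in the negative control, a difference of −0.48 (SE 0.088). DCTPP1 (ENSG00000179958, chromosome 16, 30423619 to 30430075, minus strand) had 12.9 and 13.8 FPKM in NT1_hp2, against 18.2 and 19.5 FPKM in the negative control, a difference of −0.47 (SE 0.072). ITPA and DCTPP1 thus stood at 0.702 and 0.707 of their control means, close to MUTYH at 0.690 and OGG1 at 0.718, with DUT at 0.811. DUT has 8 annotated processed pseudogenes, of which 4 had reads, 32 and 37 in all in NT1_hp2 and 6 and 16 in the negative control. These compare with 757 and 687 reads of DUT itself in NT1_hp2 and 963 and 739 in the negative control, and how reads of near-identical copies were divided is not given, so the level of DUT is uncertain to that extent.

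Across the whole table, limma-trend called 2278 of 16362 genes (13.9%) at a Benjamini-Hochberg adjusted p below 0.05, of which 818 (5.00%) were higher and 1460 (8.92%) lower in NT1_hp2 (with library totals as the scaling, 1532 and 1327). Among the 8 members 3 were past that threshold, NUDT1, ITPA and DCTPP1, all lower, and 0 were higher. Both NT1_hp2 libraries lay below both controls in 6 of 8 members and in 34.8% of all tested genes. Both lay above both controls in 0 members and in 32.0% of all tested genes. Because the members were picked with this contrast known, nothing is read from these counts. The median log2 difference was −0.38 over the 8 members and −0.0075 over all tested genes. With any 1 library left out, limma-trend called 0 genes higher and 0 or 1 lower in the whole table, with 3315, 4158, 4220 and 5836 genes at an unadjusted p below 0.05 without NT1_hp2 replicate 2, NT1_hp2 replicate 3, negative control replicate 1 and negative control replicate 3. The log2 difference of NUDT1 was then −1.25 to −1.09. Limma-voom on recovered reads called 2361 genes higher and 3256 lower.

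The order of RNA levels changed between the groups chiefly through NUDT1. In NT1_hp2 the means, on the FPKM scale, ran from DUT (13.9) through DCTPP1 (13.4), NUDT5 (12.1), ITPA (11.9), NUDT18 (6.66), MUTYH (4.44) and NUDT1 (4.23) to OGG1 (1.80). In the negative control they ran from DCTPP1 (18.9) through DUT (17.1), ITPA (17.0), NUDT5 (12.5), NUDT1 (10.8), NUDT18 (6.77) and MUTYH (6.43) to OGG1 (2.51). Neighbours whose libraries overlapped were DUT with DCTPP1 and NUDT5 with ITPA in NT1_hp2, and DUT with ITPA and NUDT18 with MUTYH in the negative control. On this scale NUDT1 was therefore in 7th place in NT1_hp2 and in 5th place in the negative control. FPKM here uses the summed length of all annotated exons, 2093 bases for NUDT1, of which its principal transcript takes 714. Divided by principal transcript length, a measure added after seeing the data and possible for 5 of 8 members, NUDT1 had 12.3 and 12.5 in NT1_hp2, against 33.7 and 29.7 in the negative control. On that scale ITPA had 22.2 and 19.4 in NT1_hp2, against 30.8 and 28.6 in the negative control. NUDT5, at 17.7 and 17.3 in NT1_hp2 and 17.6 and 18.5 in the negative control, then lay above NUDT1 in the NT1_hp2 libraries and below it in the controls. So did DCTPP1, at 16.7 and 17.9 in NT1_hp2 and 23.6 and 25.3 in the negative control. NUDT18, at 9.13 and 6.49 in NT1_hp2 and 8.77 and 7.12 in the negative control, lay below NUDT1 in every library. The place of NUDT1 below NUDT18 in NT1_hp2 thus depends on the length used. The ratio between groups is the same with either length.

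Neighbouring genes matter for these values because the library kit does not mark strand, so reads from overlapping exons of opposite strands cannot be separated. NUDT1, NUDT18 and ITPA shared no exon base with another gene. MRM2, the divergent neighbour of NUDT1, had 11.3 and 10.5 FPKM in NT1_hp2, against 14.9 and 12.4 FPKM in the negative control, which put its log2 difference at −0.30 (SE 0.10) and left it short of the threshold (adjusted p = 0.107, limma-trend). The gap between the NUDT1 and MRM2 differences was not tested. CDC123, the neighbour of NUDT5, had 20.7 and 19.7 FPKM in NT1_hp2 and 21.2 and 19.2 FPKM in the negative control, and shared 3.62% of the exon bases of NUDT5. TOE1, which shares 14.1% of the exon bases of MUTYH, had 4.54 and 5.16 FPKM in NT1_hp2 and 6.99 and 5.89 FPKM in the negative control (−0.34, limma-trend adjusted p = 0.0925).

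**Figure D2:**
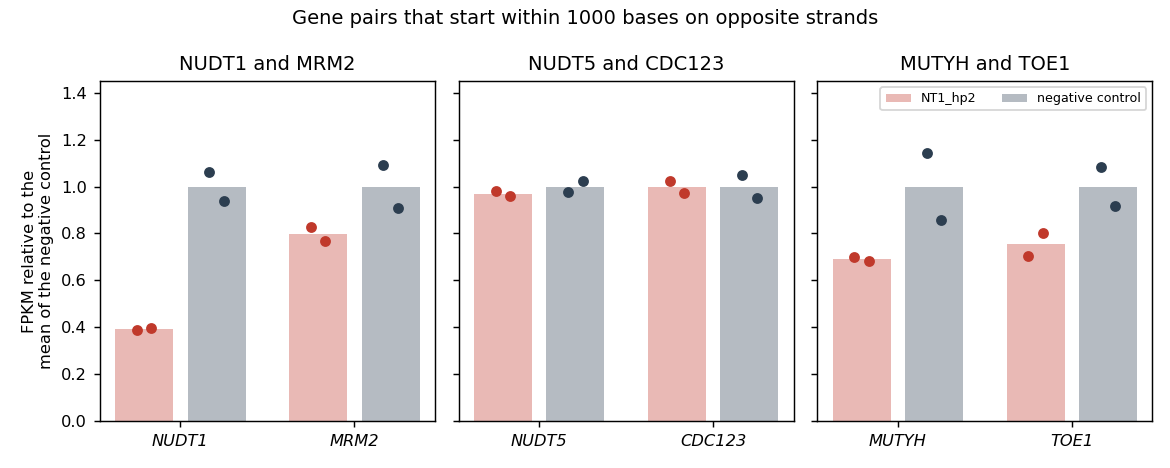
FPKM relative to the mean of the negative control for 3 members and the gene that starts near them on the other strand. Bars are group means from 0 and points are single libraries, NT1_hp2 left and negative control right. NUDT1 stands at 0.392 of its control mean and MRM2 at 0.797, NUDT5 and CDC123 stand near 1, and MUTYH and TOE1 stand at 0.690 and 0.754.

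Overlap was widest for DCTPP1, which shares 666 of its 1581 exon bases (42.1%) with ZNF771, a zinc finger gene of the opposite strand at 3.44 and 4.49 FPKM in NT1_hp2, against 6.47 and 5.90 FPKM in the negative control. OGG1 shares 25.0% of its exon bases with CAMK1, a calcium/calmodulin-dependent kinase gene that had 1.17 and 1.502 FPKM in NT1_hp2, against 2.37 and 2.43 FPKM in the negative control. A further 4.08% is shared with TADA3, a subunit gene of histone acetyltransferase complexes. TADA3 fell to 12.7 and 11.5 FPKM in NT1_hp2, against 18.8 and 15.8 FPKM in the negative control (log2 difference −0.48, limma-trend adjusted p = 0.0468). CAMK1 (adjusted p = 0.0596) and ZNF771 (0.0535) did not pass in the same fit. The part of these neighbours in the OGG1 and DCTPP1 values was not tested. NUDT5 also shares 7.79% of its exon bases with SEC61A2, and DUT 14.5% with the antisense gene AC023355.1, which lay at 0.383 to 0.676 FPKM in the 4 libraries.

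Differences between the groups moved with GC content in the whole table, and 6 of the 8 members lie above the median GC content of tested genes. Over the 16350 tested genes with a transcript sequence, Spearman's rho between log2 difference and transcript GC content was −0.56, given as a description across genes, which share the same 4 libraries. The median difference of protein-coding genes was 0.18 in the 3036 lowest in GC content (up to 41.9%) and −0.30 in the 3035 highest (56.8% to 75.8%). NUDT1 is at 58.7% GC, close to ITPA (58.6%), MUTYH (60.5%) and DCTPP1 (55.6%). NUDT18, which did not differ between the groups beyond its spread, has the highest GC content of the 8 at 63.9%. NUDT5 and DUT, at 42.6% and 44.2%, lie below the median of 47.9% over tested genes.

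**Figure D3:**
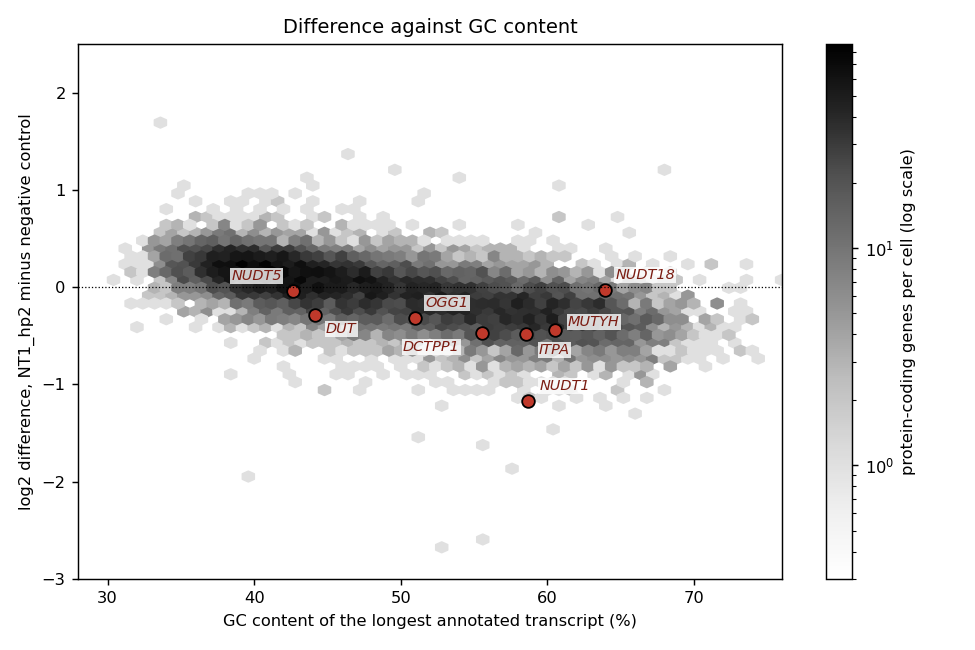
Log2 difference (NT1_hp2 minus negative control, log2(FPKM + 1) scale) against GC content of the longest annotated transcript for tested protein-coding genes, shaded by number of genes, with the 8 members as labelled points. The cloud slopes downward, and NUDT1 lies in its lower tail at −1.17. NUDT18, at −0.031, lies above the median of −0.30 of the protein-coding genes highest in GC content.

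With smooth trends in exon length and GC content removed from each library, the NUDT1 difference was −0.88, against −1.17 as deposited. ITPA was then at −0.19, DCTPP1 at −0.25 and MUTYH at −0.15, each nearer to 0 than as deposited. OGG1 (−0.28) and DUT (−0.32) were little altered, NUDT5 was at −0.14 and NUDT18 at 0.33. The direction of NUDT5 and NUDT18 also depended on scaling, since library totals gave 0.029 and 0.036. Over all 16 settings, which include that of the deposited values, the difference of NUDT1 ran from −1.35 to −0.88, and MUTYH, DUT, ITPA and DCTPP1 were negative in every one. OGG1 was negative in the 15 settings that kept it. Settings that change only the filter or the shrinkage leave these differences as they were. Leaving out 1 library could not turn the sign where both NT1_hp2 libraries lay below both controls, as in NUDT1, OGG1, MUTYH, DUT, ITPA and DCTPP1.

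**Figure D4:**
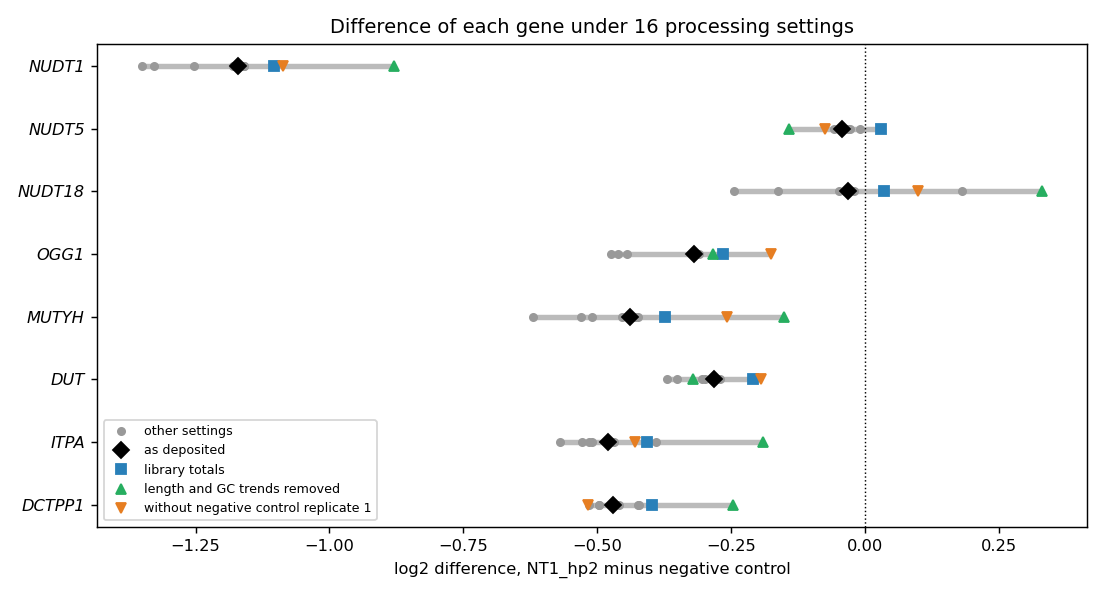
Log2 difference (NT1_hp2 minus negative control) of each member under 16 processing settings, 1 point per setting, with 4 settings marked by shape and the dotted line at no difference. NUDT1 stays at or below −0.88 in all of them, and NUDT5 and NUDT18 fall on both sides of 0.

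Other genes of the same chemistry were read from the fit across all genes. The counts of each list below stand against these counts over the whole table. Limma-trend gave 6061 of 16362 genes an unadjusted p below 0.05, in either direction. Limma-voom called 2361 higher and 3256 lower of 16361 genes. Of 20 other Nudix hydrolase genes, 19 were tested, and 0 were called higher and 1 lower, against 5.00% and 8.92% of all tested genes. The median difference was −0.087 (2 higher and 4 lower at an unadjusted p below 0.05, and 2 and 4 with limma-voom). The gene that fell was NUDT22, which encodes a UDP-glucose hydrolase. NUDT22 had 2.34 and 3.35 FPKM in NT1_hp2, against 5.80 and 5.18 FPKM in the negative control (log2 difference −0.77, SE 0.15, limma-trend adjusted p = 0.0422). With length and GC trends removed, 0 genes of the list were called in either direction. By the mean of all 4 libraries the most abundant that did not pass was NUDT21, a pre-mRNA cleavage factor subunit with a Nudix fold, at 22.7 and 22.7 FPKM in NT1_hp2 and 20.2 and 21.3 FPKM in the negative control. Other genes hold 38.6% of the exon bases of NUDT22, so its level includes reads that cannot be assigned by strand.

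Base excision repair acts on the lesions that escape the nucleotide pool enzymes. Of 18 other genes of this pathway, all tested, 1 rose and 5 fell, against 5.00% and 8.92% of all tested genes, with a median difference of −0.27 (2 higher and 11 lower at an unadjusted p below 0.05, and 1 and 10 with limma-voom). NEIL3, a glycosylase for oxidized bases in single-stranded and replicating DNA, rose to 16.6 and 14.9 FPKM in NT1_hp2, against 11.5 and 10.9 FPKM in the negative control (log2 difference 0.46, SE 0.079, limma-trend adjusted p = 0.0362). NEIL1, a glycosylase for oxidized pyrimidines, fell to 8.26 and 8.55 FPKM in NT1_hp2, against 12.9 and 11.2 FPKM in the negative control (−0.47, adjusted p = 0.0401). The uracil glycosylase gene UNG fell to 19.1 and 18.6 FPKM in NT1_hp2, against 29.1 and 25.1 FPKM in the negative control (−0.50, adjusted p = 0.0382). MPG, a glycosylase for alkylated purines, was at −0.72, APEX1, the main abasic site endonuclease, at −0.60, and the scaffold gene XRCC1 at −0.67, and these 3 fell as well (adjusted p = 0.0437, 0.0353 and 0.0420). PARP1, on the same measure the most abundant that did not pass, had 51.7 and 50.1 FPKM in NT1_hp2 and 65.5 and 59.8 FPKM in the negative control. Exon bases shared with other genes made up 30.5% of NEIL1, 27.3% of MPG, 24.0% of XRCC1 and 2.86% of APEX1, and none of NEIL3 or UNG. Once length and GC trends were removed, 0 of the 18 genes were called in either direction, in a fit that called 118 genes higher and 177 lower in the whole table.

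Enzymes that make or break down deoxynucleotides set the size of the pool that the members clean. Of 22 such genes, 21 were tested, with 0 called higher and 3 lower, against 5.00% and 8.92% of all tested genes. The median was −0.14 (2 higher and 8 lower at an unadjusted p below 0.05, and 2 and 8 with limma-voom). NT5C, a cytosolic deoxynucleotidase, fell to 5.63 and 5.56 FPKM in NT1_hp2, against 15.6 and 11.7 FPKM in the negative control (log2 difference −1.14, SE 0.14, limma-trend adjusted p = 0.0340). TYMS, thymidylate synthase, fell to 12.8 and 12.3 FPKM in NT1_hp2, against 18.2 and 17.9 FPKM in the negative control (−0.49, adjusted p = 0.0340). PNP, a purine nucleoside phosphorylase, fell to 13.8 and 13.6 FPKM in NT1_hp2, against 18.5 and 17.1 FPKM in the negative control (−0.35, adjusted p = 0.0416). RRM1, the large subunit of ribonucleotide reductase and by the mean of all 4 libraries the most abundant that did not pass, had 77.3 and 71.9 FPKM in NT1_hp2 and 73.3 and 68.7 FPKM in the negative control. The exons of NT5C share 60.7% of their bases with ARMC7 and AC022211.4, those of TYMS 46.6% with TYMSOS and ENOSF1, and those of PNP 11.9% with AL355075.3, which leaves the levels of all 3 uncertain.

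Enzymes that clear peroxide and superoxide limit the oxidation of nucleotides. Of 19 such genes 18 were tested, with 0 called higher and 3 lower, against 5.00% and 8.92% of all tested genes. The median was −0.12 (0 higher and 7 lower at an unadjusted p below 0.05, and 0 and 8 with limma-voom). The peroxiredoxin gene PRDX5 fell to 64.9 and 65.4 FPKM in NT1_hp2, against 144 and 110 FPKM in the negative control (log2 difference −0.94, SE 0.14, limma-trend adjusted p = 0.0340). The mitochondrial thioredoxin gene TXN2 fell by 0.49 and the glutathione peroxidase gene GPX1 fell by 0.52 on the log2 scale (adjusted p = 0.0398 and 0.0474). The cytosolic thioredoxin gene TXN, on the same measure the most abundant that did not pass, had 246 and 248 FPKM in NT1_hp2 and 261 and 230 FPKM in the negative control. After removal of length and GC trends, 0 genes of this list were called in either direction, while 1 deoxynucleotide gene was called lower. In every gene of these lists that was called as deposited, higher or lower, negative control replicate 1 lay above replicate 3.

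**Figure D5:**
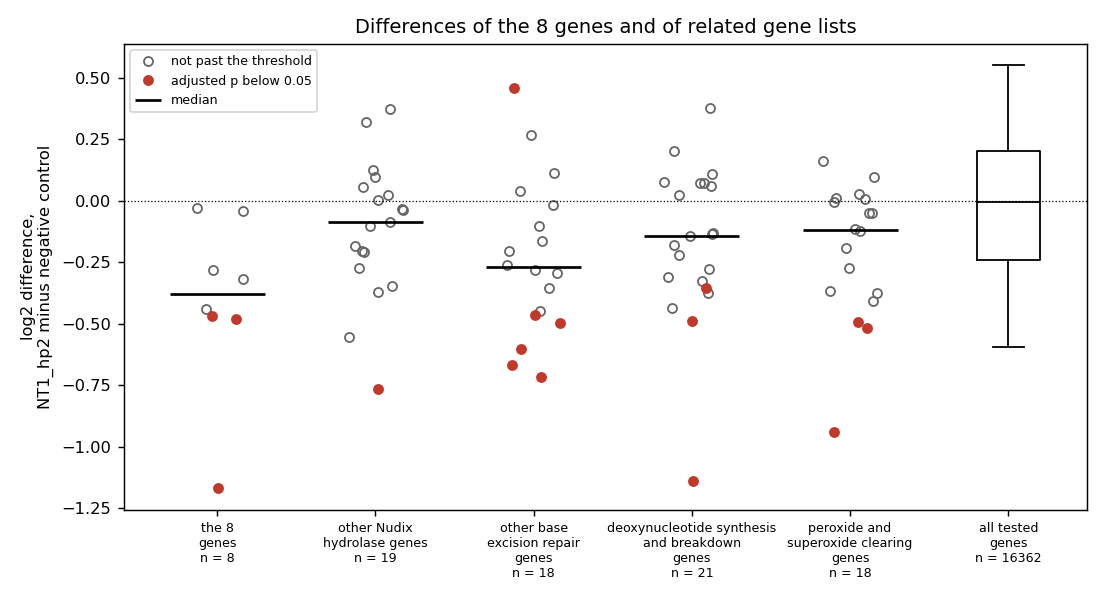
Log2 difference (NT1_hp2 minus negative control) of every tested gene of the member group and of 4 related lists, 1 point per gene, filled where the adjusted p was below 0.05, with a line at the median. Filled points of the member group are not read as a test, since the members were picked with this contrast known. The box at the right shows all 16362 tested genes (quartiles, with whiskers from the 5th to the 95th percentile). List medians lie between −0.27 and −0.087, and NUDT1 and NT5C are the lowest points.

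By a rule of likeness, the 5 protein-coding genes closest to NUDT1 were taken from 12141 candidates by the distance between log2(FPKM + 1) values centred on each gene's mean over the 4 libraries. They were MRPL23 (distance 0.103), MRPL28 (0.123), HIST1H2BK (0.141), NT5C (0.160) and HSPA8 (0.163). MRPL23, a mitochondrial ribosomal protein gene, had 5.26 and 4.81 FPKM in NT1_hp2, against 13.8 and 12.3 FPKM in the negative control. MRPL28, which encodes another protein of that ribosome, had 14.9 and 14.6 FPKM in NT1_hp2, against 37.1 and 29.5 FPKM in the negative control. The histone gene HIST1H2BK and the chaperone gene HSPA8 were at −1.08 and −1.04. Both HIST1H2BK and HSPA8 have near-identical copies in the genome, so their levels are less certain. The likeness rests on 4 libraries and was chosen by the values themselves, so it carries no test.

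The libraries held 12506203 to 14908687 reads recovered from the deposited values, and 3 reads amounted to 0.208 to 0.239 FPKM for a gene of 1 kilobase. Mitochondrial transcripts took 4.33% and 4.29% of reads in NT1_hp2, against 6.06% and 5.92% in the negative control, and the part of this shift in the values of the members was not tested. Of 9 epithelial and renal markers, 4 reached 1 FPKM in at least 2 libraries, led by KRT8 at 84.2 and 86.6 FPKM in NT1_hp2 and 112 and 99.0 FPKM in the negative control, whereas CDH1, EPCAM, PAX2 and PAX8 stayed below 0.6 FPKM. Leukocyte markers summed to 1.05 to 1.54 FPKM in NT1_hp2 and 1.79 to 2.08 FPKM in the negative control, with PTPRC and CD3E at 0 in all libraries. Endothelial markers summed to 0.349 to 0.462 FPKM over the 4 libraries. Fibroblast markers summed to 10.1 to 10.7 FPKM, nearly all of it COL1A1 and LUM.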

How the data were processed

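Each library had a deposited table of 58736 features, 58735 of them Ensembl genes found in GENCODE 29. The authors deposited values taken as FPKM, a unit inferred from the values since the file headers name only gene and library. The genome build is GRCh38.p12 per the submitters' processing notes, while aligner, counter and scaling are not stated there. Multiplied by summed exon length, 100% of values above 0 came out as whole multiples (tolerance 0.01) of 1 step per library, from which reads were recovered. The library size implied by that step was 1.03 and 1.04 times the recovered reads in NT1_hp2 replicates 2 and 3. In negative control replicates 1 and 3 it was 0.966 and 1.005 times the recovered reads. Per the labels' protocols, wells held 300000 cells, seeded 24 h ahead, and libraries were made from 1 µg of RNA with a NEBNext Ultra kit, which does not mark strand.

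Genes that reached 1 FPKM in 2 or more libraries were compared as log2(FPKM + 1) with limma 3.58.1 (trend and robust shrinkage, R 4.3.3). Benjamini-Hochberg adjustment ran over 16362 genes, with calls below 0.05. The fitting code was tested on data simulated at a fixed dispersion. False calls were judged there only among genes of at least 300 bases, a limit that the main fit does not set. The alternative with a minimum of 300 bases was added after seeing the data. Length and GC trends were fitted with mgcv 1.9.3. Genes and lists were chosen with earlier results of these data known. Named list genes are up to 6 that passed, by adjusted p, and the most abundant (mean of 4 libraries) that did not pass. Promoter sequences are RefSeq's, found for 7 of 8 members. Some genes of the lists are not reported here.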

Additional observations from a re-analysis of the deposited data

How the results depend on the processing

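No difference of a called member changed sign under any alternative tried, but several alternatives could not change it. Those that alter only the filter or the shrinkage leave the difference as it was. Leaving out 1 library keeps it negative, since both NT1_hp2 libraries lay below both controls in each called member. Counts of calls moved widely. The split of calls was 35.9% higher as deposited and 53.6% (1532 higher, 1327 lower) with library totals, where 1 Nudix and 2 deoxynucleotide genes were called higher. In the order all genes higher, all genes lower, Nudix higher, Nudix lower, base excision higher, base excision lower, deoxynucleotide higher, deoxynucleotide lower and peroxide lower, the as-deposited counts were 818, 1460, 0, 1, 1, 5, 0, 3 and 3. They were 1347, 2235, 1, 3, 1, 8, 1, 6 and 6 with genes of at least 300 bases, 1241, 2193, 2, 2, 1, 10, 1, 5 and 6 with a mean of at least 5 FPKM, and 1778, 2938, 2, 4, 2, 10, 1, 8 and 6 among protein-coding genes. With limma-voom on recovered reads they were 2361, 3256, 2, 4, 1, 10, 2, 8 and 8. They were 118, 177, 0, 0, 0, 0, 0, 1 and 0 after removal of length and GC trends, and 131, 0, 0, 0, 0, 0, 0, 0 and 0 without the filter, where 4836 genes had an unadjusted p below 0.05. With a pseudocount of 0.1, 2 Nudix genes were called lower. With 1 library left out, all genes lower ran from 0 to 1 and every other count from 0 to 0 (limma-trend), whichever library it was. Among the members 3 were past the threshold as deposited and 6 with limma-voom or protein-coding genes alone. There were 5 with a mean of at least 5 FPKM, a filter that drops OGG1. After removal of length and GC trends there was 1 (NUDT1), and without the filter 0. Where more members passed, calls over all genes rose as well, as listed above. Those calls were out of 8479 genes with a mean of at least 5 FPKM, 16361 with limma-voom and 12149 protein-coding genes, against 16362 as deposited. Causes were not tested. Nothing is read from the counts of members, because the members were picked with this contrast known. No paired analysis was possible because the groups share only 1 replicate number. With 2 libraries a group, intervals on reads cover counting error only, and the spread between libraries rests on 2 values.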
